A study of Mus musculus with 8 samples.

Results

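The 8 mouse genes described here, Ndrg1, Kctd11, Smtnl2, Appl2, Acap1, St3gal1, Iglon5 and Naa80, share a measured property and not a function. They were picked from a list because their RNA lay lower in Hepa1-6 cells given TMAO than in untreated cells and because none of them encodes a glycolytic enzyme. They are 8 of the 54446 genes listed in the deposited count matrix, and all 8 were found there by the symbol assigned to their Ensembl ID. Their values with TMAO alone against untreated cells therefore describe how they were chosen and carry no test below.

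Hepa1-6 is a mouse hepatoma line, for which the labels give the strain C57BL/6, grown here in serum-containing medium, so every group is a treatment of the same line. Messenger RNA was sequenced from 4 groups of 2 libraries each, numbered 14 and 16 in the labels. The combined group had TMAO at 50 µM and TNF-α at 50 ng/ml, the TNF-α group had 50 ng/ml TNF-α, the TMAO group had 50 µM TMAO, and the control group had neither agent. Treatment lasted 24 h in the treated groups. The treatment label of the combined libraries names TMAO for both doses, whereas their titles and the protocol name TNF-α as the second agent, and the titles were followed. Nothing in the labels says that the libraries came from separate cultures, so the p-values reflect no more than library-to-library spread, part or all of which may be technical.

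TMAO, trimethylamine N-oxide, is made in the liver from a product of gut bacteria, and TNF-α is an inflammatory cytokine that acts on hepatocytes largely through NF-κB. Ndrg1 is a widely used marker of the response to low oxygen. In that state the prolyl hydroxylases stop marking HIF-1α for destruction. The factor then binds short sequences with the core CGTG near its targets. The other genes serve protein degradation, endosomes, sialic acid transfer, cell adhesion and actin modification.

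Total counts per library ranged from 24736746 to 30488605, and the limit that 3 counts set lay between 0.0993 and 0.124 CPM, counts scaled to a common library size. The lowest count of any of the 8 genes in any library was 29, so all 8 were among the 15613 genes that passed the low-count filter, without depending on the groups where they were high. The TNF-α pair stood apart from the other pairs: the SD of the log2 difference between its libraries was 0.813 over all tested genes, against 0.352 to 0.413 for the other 3 pairs. Of 12 hepatocyte markers, Alb, Afp and Hnf4a were present, whereas Ttr, Apoa1, Serpina1a and Ahsg stayed under 1 CPM in every library. The summed hepatocyte markers were 1634 to 1679 CPM in the combined group, 1682 to 1996 CPM with TNF-α, 3547 to 3597 CPM with TMAO and 3726 to 3847 CPM in control. Of 8 fibroblast and stellate markers, Dcn averaged 1294 CPM in the combined group and 1754 CPM in control, and 4 stayed under 1 CPM. These bulk libraries come from 1 line, and they cannot tell fewer cells that express a gene from less RNA per cell.

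The genes spanned a wide range of expression. On the authors' TPM scale, which also divides by transcript length, the control levels ran from St3gal1 at 83.3 ± 7.86, through Ndrg1 at 62.2 ± 0.634, Iglon5 at 31.5 ± 0.0495, Appl2 at 19.3 ± 2.09, Kctd11 at 10.7 ± 1.29 and Naa80 at 6.37 ± 0.877, down to Smtnl2 at 1.84 ± 0.0637 and Acap1 at 1.77 ± 0.621 (SD, n = 2 each). Smtnl2 and Acap1 did not differ beyond their spread, while the other neighbours in that order did. In the TNF-α group the first places were Ndrg1 at 101 ± 5.93 TPM and St3gal1 at 94.3 ± 39.4 TPM, whose values overlapped. The levels and differences that follow are in CPM, which compares libraries for 1 gene and not genes with each other.

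**Figure D1:**
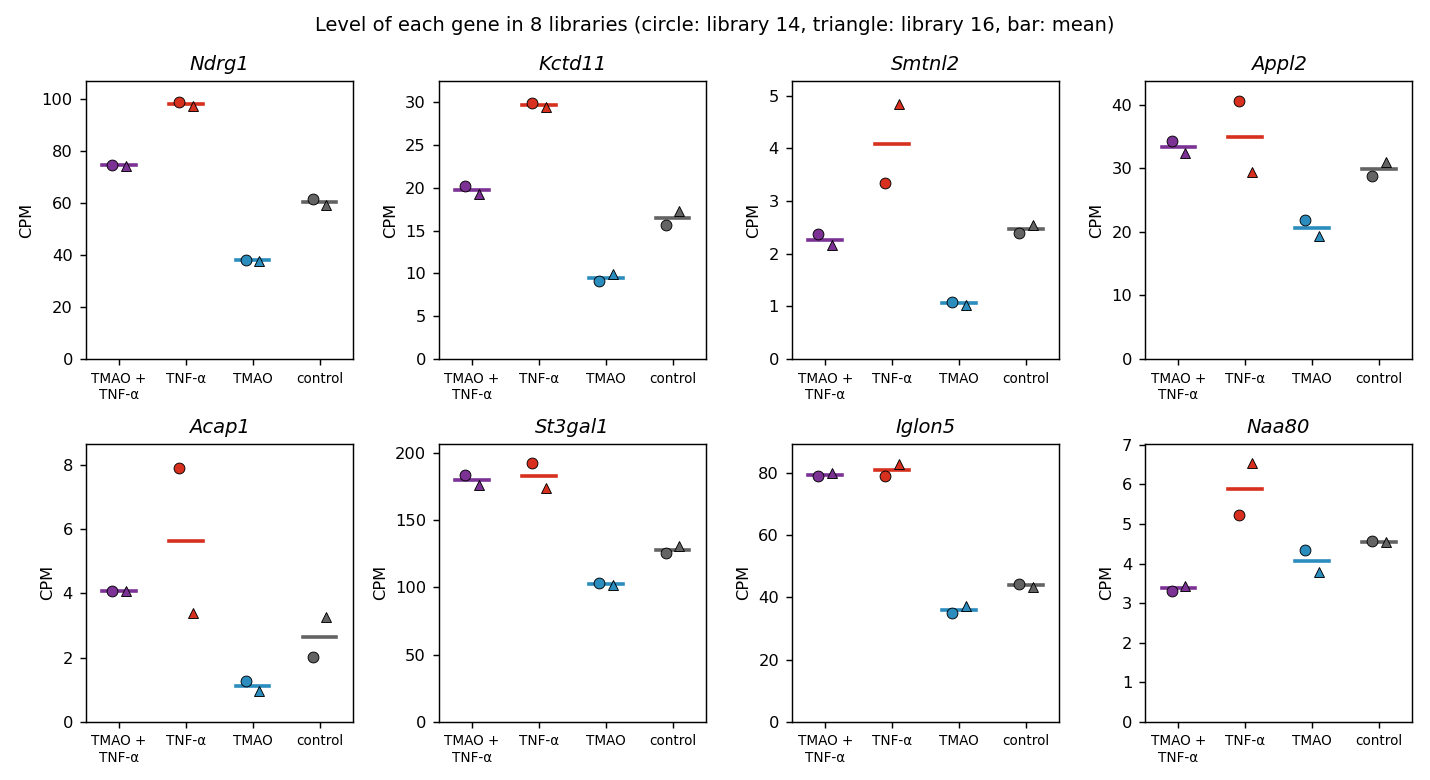
CPM of each of the 8 genes in each library, with 1 panel per gene, the groups on the horizontal axis from combined to control, and 1 point per library (n = 2 per group). In every panel both TMAO libraries lie below both control libraries, in genes chosen because they lay lower with TMAO than in control. Naa80 is the gene whose combined libraries lie below its TMAO libraries.

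Ndrg1 encodes a cytoplasmic protein of the α/β-hydrolase fold family that is induced by hypoxia and cell stress and is known as a suppressor of metastasis in several cancers. It had 74.8 and 74.2 CPM in the combined group, against 98.7 and 97.3 CPM with TNF-α alone. It had 38.2 and 37.6 CPM with TMAO alone, against 61.5 and 59.4 CPM in control. No pair of groups overlapped, and the order from TNF-α through combined and control to TMAO held in every library. With TMAO added to TNF-α the log2 fold change was -0.40 ± 0.0881 (SE; 95% interval -0.604 to -0.188), at an adjusted p of 0.569, so it did not pass. TNF-α, averaged over cells with and without TMAO, raised Ndrg1 by a log2 fold change of 0.84 ± 0.0628 (adjusted p = 0.000426).

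The paralogue Ndrg2, a family member known from differentiated tissues, rose with TNF-α as well, by 1.03 ± 0.105 (adjusted p = 0.00145). Its means were 83.0 ± 1.35 CPM in the combined group, 105 ± 20.2 CPM with TNF-α, 42.6 ± 1.67 CPM with TMAO and 49.0 ± 4.33 CPM in control. Ndrg3 had a log2 fold change of -0.19 ± 0.08 with TNF-α and was not called (adjusted p = 0.241). Neither paralogue was called in either comparison of TMAO.

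Kctd11 encodes an adaptor that brings Cullin 3 ubiquitin ligase to histone deacetylase 1 and so restrains Hedgehog signalling. It had 20.2 and 19.3 CPM in the combined group, against 29.9 and 29.4 CPM with TNF-α alone. It had 9.07 and 9.88 CPM with TMAO alone, against 15.6 and 17.3 CPM in control. The 4 groups did not overlap and stood in the same order as for Ndrg1. The combined group differed from TNF-α by -0.59 ± 0.11 (95% interval -0.847 to -0.327; adjusted p = 0.569), and TNF-α on average raised the gene by 0.95 ± 0.0793 (adjusted p = 0.000636). Its relatives Kctd6 and Kctd21, also Hedgehog suppressors, were not called in any comparison. Of 8 Hedgehog genes tested besides Kctd11, 1 was called: Sufu, an inhibitor of the Gli factors, rose with TNF-α by 0.36 ± 0.074 (adjusted p = 0.0273). Of all tested genes 5.35% were called higher, so this single call is no result about the list.

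Smtnl2 encodes a smoothelin-like protein with a calponin homology domain. It had 2.37 and 2.16 CPM in the combined group, against 3.34 and 4.84 CPM with TNF-α alone. It had 1.09 and 1.03 CPM with TMAO alone, against 2.40 and 2.55 CPM in control. The combined libraries lay below both TNF-α libraries and also just below both control libraries. The combined group differed from TNF-α by -0.85 ± 0.23 (95% interval -1.389 to -0.301; adjusted p = 0.569). The average TNF-α difference was 0.91 ± 0.169 (adjusted p = 0.0175), and the call was lost when any library of the combined, TMAO or control groups was left out (highest adjusted p = 0.0932) and on the TPM scale (adjusted p over all alternatives 0.000158 to 0.314). Smtn, the smooth-muscle relative, rose with TNF-α by 0.51 ± 0.095 (adjusted p = 0.0187) and had 0.01 ± 0.135 with TMAO against control.

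Appl2 and Acap1 act in endocytic traffic. Appl2 is an adaptor of early endosomes that binds Rab5 and takes part in adiponectin and Akt signalling. It had 34.4 and 32.4 CPM in the combined group, against 40.6 and 29.4 CPM with TNF-α alone. It had 21.9 and 19.4 CPM with TMAO alone, against 28.7 and 30.96 CPM in control. The combined values lay between the TNF-α libraries, and the TNF-α library numbered 16 lay between the control libraries. Neither difference passed: the combined group against TNF-α had -0.07 ± 0.165 (95% interval -0.46 to 0.323; adjusted p = 0.832), and TNF-α on average had 0.46 ± 0.118 (adjusted p = 0.0583). Appl1, its close relative, had -0.04 ± 0.158 on average with TNF-α (adjusted p = 0.929).

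Acap1 encodes a GTPase-activating protein for Arf6 that sorts cargo such as integrins for recycling. It had 4.06 and 4.08 CPM in the combined group, against 7.91 and 3.39 CPM with TNF-α alone. It had 1.26 and 0.961 CPM with TMAO alone, against 2.03 and 3.27 CPM in control. The 2.33-fold gap between the TNF-α libraries was the widest within a group among the 8 genes, and the combined libraries lay inside it. The combined group differed from TNF-α by -0.48 ± 0.407 (95% interval -1.444 to 0.481; adjusted p = 0.574). TNF-α on average raised Acap1 by 1.49 ± 0.308 (adjusted p = 0.0277), a call lost when any library of the combined, TMAO or control groups was left out (highest adjusted p = 0.137) and on the TPM scale (adjusted p over all alternatives 1.04e-12 to 0.263). Acap1 is best known from lymphocytes, and in these libraries 8 of 10 leukocyte markers stayed under 1 CPM, with Cd3e and Cd3d at 0 throughout. The exceptions were Cd68, at 9.46 CPM in the combined group and 8.73 CPM in control, and Csf1r, at 3.12 and 7.38 CPM. With TNF-α on average Csf1r changed by -1.08 ± 0.106 (adjusted p = 0.00118), and Cd68 was not called (adjusted p = 0.119). The summed leukocyte markers were 12.5 to 14.3 CPM in the combined group, 14.8 to 17.2 CPM with TNF-α, 14.9 to 16.2 CPM with TMAO and 15.995 to 17.8 CPM in control.

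The other Arf GTPase-activating proteins of the ACAP and ASAP families, 5 of them tested, were not called in any comparison. Of 15 early-endosome genes tested, Inpp5b, a phosphoinositide phosphatase, rose with TNF-α by 0.33 ± 0.076 (adjusted p = 0.0409). Of 13 Arf6 and recycling genes tested, Ehd1, which tubulates recycling endosomes, rose by 0.45 ± 0.092 (adjusted p = 0.0273). Each list thus had 1 gene called, against 5.35% of all tested genes called higher, and nothing is read from this about either list. No gene of either list was called in a comparison of TMAO.

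St3gal1 encodes the sialyltransferase that caps core 1 O-glycans with α2,3-linked sialic acid. It had 184 and 176 CPM in the combined group, against 192 and 174 CPM with TNF-α alone. It had 104 and 102 CPM with TMAO alone, against 125 and 131 CPM in control. The combined and TNF-α groups overlapped, and all 4 libraries with TNF-α lay above all 4 without it. The combined group differed from TNF-α by -0.03 ± 0.10 (95% interval -0.262 to 0.21; adjusted p = 0.899), and TNF-α on average raised the gene by 0.66 ± 0.0711 (adjusted p = 0.00173). In TPM the TNF-α libraries had 122 and 66.5 although their CPM were close, and on the log2(TPM + 1) scale the TNF-α call was lost (adjusted p = 0.441; over all alternatives 5.19e-27 to 0.598). St3gal5, which makes the ganglioside GM3, also rose with TNF-α, by 0.43 ± 0.103 (adjusted p = 0.0452), and the other 4 tested sialyltransferases of the family were not called.

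Of 14 tested genes of core 1 O-glycan synthesis and sialic acid supply, 3 fell with TNF-α and none rose, against 3.86% of all tested genes called lower and 5.35% called higher. C1galt1, which builds the core 1 acceptor, averaged 72.2 ± 0.519 CPM in the combined group, 58.1 ± 12.6 CPM with TNF-α, 127 ± 1.04 CPM with TMAO and 116 ± 9.60 CPM in control (SD, n = 2 each), a log2 fold change of -0.91 ± 0.109 (adjusted p = 0.00301). Gne, the first enzyme of sialic acid synthesis, changed by -0.43 ± 0.074 (adjusted p = 0.0128), and Galnt10, which starts O-glycans, by -0.32 ± 0.071 (adjusted p = 0.0362). None of the 14 was called in a comparison of TMAO. Galnt2, also on this list, was not tested: in control it averaged 0.0345 CPM but 44.4 TPM, and the source of this gap was not tested.

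Iglon5 encodes a GPI-anchored adhesion protein of the immunoglobulin superfamily, known in brain as the target of autoantibodies in a human neurological disease. It had 79.0 and 80.1 CPM in the combined group, against 79.0 and 82.8 CPM with TNF-α alone. It had 34.9 and 37.3 CPM with TMAO alone, against 44.2 and 43.4 CPM in control. The libraries with TNF-α formed 1 narrow range whether or not TMAO was present. The combined group differed from TNF-α by -0.02 ± 0.0929 (95% interval -0.243 to 0.195; adjusted p = 0.898), and TNF-α on average raised Iglon5 by 1.01 ± 0.0666 (adjusted p = 0.000247). All 8 neural markers stayed under 1 CPM, and their sum never exceeded 0.926 CPM. Of its 4 relatives, Ntm was the 1 tested; it was called lower with TNF-α, but the highest of its group means was only 0.321 CPM and no fold is given.

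Naa80 encodes the enzyme that acetylates the processed N-terminus of actin. It had 3.31 and 3.44 CPM in the combined group, against 5.23 and 6.53 CPM with TNF-α alone. It had 4.34 and 3.78 CPM with TMAO alone, against 4.56 and 4.55 CPM in control. Its combined libraries were the lowest of all 8, below the TMAO libraries too, a pattern that none of the other 7 genes showed. The combined group differed from TNF-α by -0.80 ± 0.175 (95% interval -1.212 to -0.385; adjusted p = 0.569), and TNF-α on average differed by 0.05 ± 0.123 (adjusted p = 0.89). The gene overlaps Hyal1 and Hyal3 on the same strand, and Hyal1 had 760 counts in all, so the split of reads between them is uncertain. The 6 other tested catalytic subunits of N-terminal acetyltransferases and 9 actin-monomer genes were not called in any comparison. In TMAO against control, the 4 actin-monomer genes with the smallest p were Tmsb10 at -0.14 ± 0.275, Cfl1 at -0.09 ± 0.191, Pfn1 at -0.07 ± 0.254 and Tmsb4x, for which no fold is given because its means of 0.0672 CPM with TMAO and 0.0172 CPM in control lay under the limit that 3 counts set.

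Seen together in TMAO against control, the 8 genes ranged from -1.25 for Acap1 and -1.22 for Smtnl2, through -0.79 for Kctd11, -0.67 for Ndrg1 and -0.53 for Appl2, to -0.32 for St3gal1, -0.28 for Iglon5 and -0.17 for Naa80. Both TMAO libraries lay below both control libraries for 8 of 8, as they did for 15.9% of all tested genes. Nothing is read from this, since the genes were chosen because they lay lower with TMAO than in control. No gene of the 15613 passed at an adjusted p under 0.05 in that comparison (0%). At an unadjusted p under 0.05 there were 184 genes, which is 1.18% of those tested, and DESeq2 called 4 where limma-voom called 0.

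The comparison of the combined group with TNF-α asked about TMAO in libraries outside the comparison named in the choice of the genes, although the choice was made with earlier results of all these libraries known. None of the 8 was called, and neither was any of the 15613 genes (0%) in the quasi-likelihood test of edgeR (adjusted by Benjamini-Hochberg), in DESeq2 or in limma-voom. At an unadjusted p under 0.05 there were 549 genes, or 3.52% of those tested, 368 of them lower (2.36%), and 4 of the 8 were among these: Ndrg1, Kctd11, Smtnl2 and Naa80. In these 4 both combined libraries lay below both TNF-α libraries, against 17.3% of all tested genes. All 8 fitted fold changes were below 0, against 51.4% of all tested genes, but the intervals of Appl2, Acap1, St3gal1 and Iglon5 included 0. The median was -0.44 for the 8 and -0.01 for all genes.

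Among the libraries left out singly, the TNF-α library numbered 14 was the one that changed this count of called genes. Without it, 4 of the 8 were called (Ndrg1, Kctd11, Smtnl2 and Naa80), but so were 8068 genes in all, which rested on the lone TNF-α library numbered 16. Within each number, Ndrg1 differed by -0.40 in the libraries numbered 14 and -0.39 in those numbered 16, and Kctd11 by -0.56 and -0.61. Smtnl2 differed by -0.48 and -1.14, and Naa80 by -0.65 and -0.91. Acap1 differed by -0.95 and 0.26 and Appl2 by -0.24 and 0.14, so their sign depended on the pair of libraries.

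**Figure D2:**
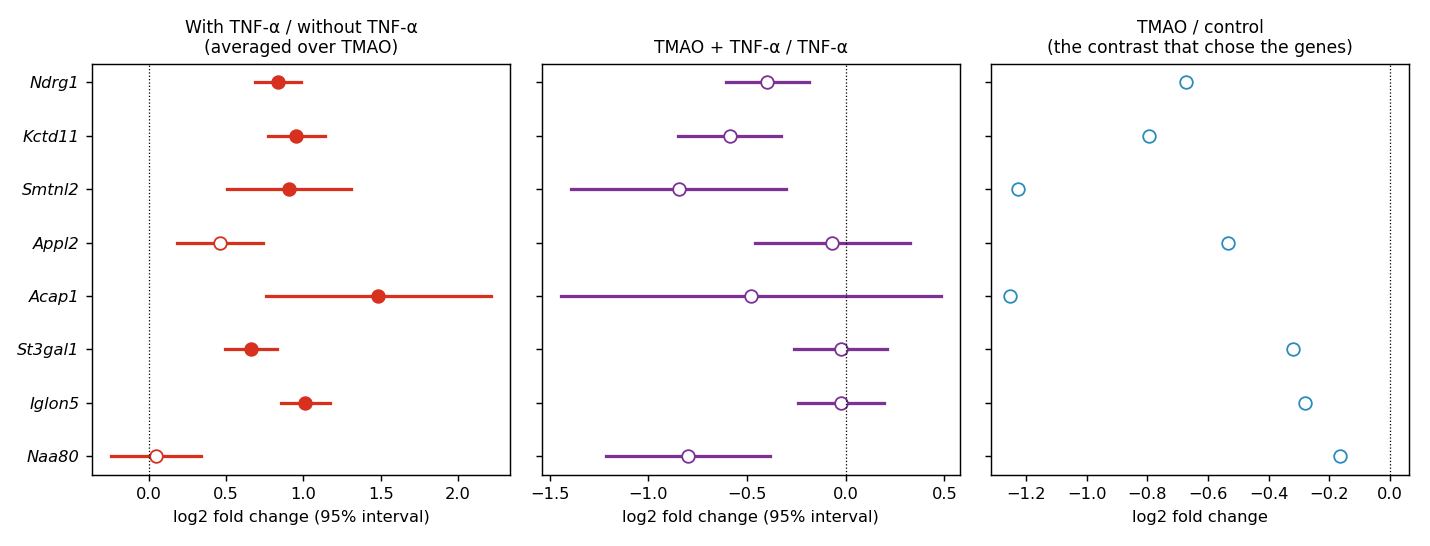
Log2 fold change of the 8 genes for TNF-α averaged over TMAO (left), for the combined group against TNF-α (middle) and for TMAO against control (right), with 95% intervals in the first 2 panels and none in the right panel, whose contrast chose the genes; filled points have an adjusted p under 0.05. On the left 6 points are filled, no point is filled in the middle, and the intervals of Ndrg1, Kctd11, Smtnl2 and Naa80 lie below 0 there.

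TNF-α moved most of the genes upward. Averaged over cells with and without TMAO, 6 of 8 were called higher: Ndrg1, Kctd11, Smtnl2, Acap1, St3gal1 and Iglon5. This contrast cancels the difference between TMAO and control but uses those libraries too. The genes were chosen with earlier results of all these libraries known, so the count is no independent evidence. Of all tested genes 5.35% were called higher and 9.2% in either direction. All 4 libraries with TNF-α lay above all 4 without for 5 of the 8 (Ndrg1, Kctd11, Acap1, St3gal1 and Iglon5), against 9.81% of all tested genes. All 8 fitted fold changes were above 0, against 50.6% of all tested genes, with Naa80 within 1 SE of 0, and the median was 0.87 for the 8 and 0.0032 for all genes. Ndrg1, Kctd11, St3gal1 and Iglon5 were called whichever single library was left out, while Smtnl2 and Acap1 were not. Over all tested genes the number called was 1437, and it was 647 to 716 when any single library of the combined, TMAO or control groups was left out, 7444 without the TNF-α library numbered 14 and 4102 without that numbered 16. The summed hepatocyte markers given above lay lower in every library with TNF-α than in every library without it, and their part in these results was not tested.

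**Figure D3:**
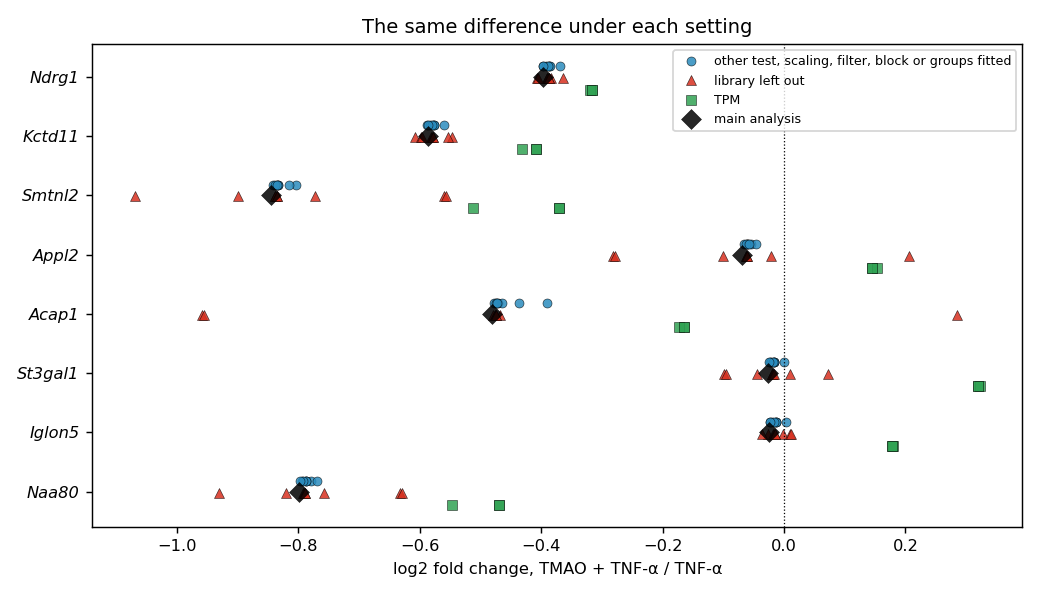
Log2 fold change of each of the 8 genes under the main analysis and each alternative, for the combined group against TNF-α; circles are other tests, scalings, filters, the block or the fitted groups, triangles leave out a library and squares use TPM. Ndrg1, Kctd11, Smtnl2 and Naa80 stay below 0 throughout, whereas Iglon5, St3gal1, Appl2 and Acap1 have points on both sides of 0.

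The separate TNF-α differences do not cancel the difference between TMAO and control that chose the genes, and are given as values. For Iglon5 the difference was 1.14 in cells with TMAO (combined against TMAO) and 0.88 in cells without it (TNF-α against control). For Ndrg1 these were 0.98 with TMAO and 0.70 without, and for Kctd11 1.06 with TMAO and 0.85 without. Naa80 alone had opposite signs, -0.27 with TMAO and 0.36 without. Set against control, the combined group lay higher for Iglon5 by 0.86, for St3gal1 by 0.49, for Acap1 by 0.62, for Ndrg1 by 0.30, for Kctd11 by 0.26 and for Appl2 by 0.16. It lay lower for Naa80, at -0.43, and for Smtnl2, at -0.13.

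Of 26 tested genes of the hypoxia response outside glycolysis, none was called in a comparison of TMAO. In TMAO against control 25 of them had a fold change below 0 (median -0.256, against 0.002 for all genes), and in the combined group against TNF-α 21 did (median -0.195, against -0.012). The 4 with the smallest p in the first were Bnip3 at -1.37, Egln3 at -0.85, P4ha2 at -0.36 and Vegfa at -0.39. The list was chosen with earlier results of these data known, so its direction is no independent evidence. With TNF-α on average, 9 of the 26 rose and 1 fell, against 5.35% of all tested genes called higher and 3.86% called lower. Bnip3, a mitophagy receptor, rose by 0.84 ± 0.084 (adjusted p = 0.00131). Egln3, an oxygen-sensing prolyl hydroxylase, rose by 0.83 ± 0.076 (adjusted p = 0.00092), and Ddit4, an inhibitor of mTORC1, by 0.75 ± 0.113 (adjusted p = 0.00784). Ccng2, Mxi1, P4ha2, Ero1a and Kdm4b rose by 0.36 to 0.54, and Ppp1r3c, a glycogen-targeting phosphatase subunit, changed by -0.71 ± 0.074 (adjusted p = 0.00146).

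The 21 tested genes of glycolysis include the transporters Slc2a1, Slc2a3 and Slc16a3. In TMAO against control 19 of them had a fold change below 0 (median -0.213, against 0.002 for all genes). In the combined group against TNF-α 16 did (median -0.227, against -0.012), and none was called in either comparison. This list too was chosen with earlier results of these data known, so its direction is no independent evidence. With TNF-α on average 1 of the 21, the enolase gene Eno2, rose, by 0.52 ± 0.091 (adjusted p = 0.0131), a share near the 5.35% of all tested genes. None of the 7 tested genes of the HIF machinery was called in any comparison. In TMAO against control, Epas1 had 0.16, Hif1a 0.07, Arnt 0.08 and Vhl -0.06.

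Across the 8 libraries the closest partners of the genes are described here by Pearson r of log2 CPM over 9589 candidate genes. These values share the libraries and their treatments, and Ndrg1 and Kctd11 were each other's closest match (r = 0.991). Egln3 came next for Ndrg1 (0.987), ahead of Gys1 (0.980), and P4ha2 (0.983) and Egln3 (0.981) for Kctd11. Smtnl2 was nearest to P4ha2 (0.978), Bnip3 (0.976) and Bnip3l (0.975). Acap1 was nearest to Ero1a (0.989), Appl2 (0.978) and Acad11 (0.944), and Appl2 to Acad11 (0.985), Ero1a (0.961) and Xpc (0.941), among the genes open to the ranking. St3gal1 was nearest to Ak4 (0.991) and Arrdc4 (0.980), and Iglon5 to Mycl (0.994) and C9orf72 (0.991), among the genes reported here. Naa80 was nearest to Scmh1 (0.976), Faap100 (0.953) and Sars2 (0.943), and its r with the other 7 genes ran from 0.132 to 0.614. Among those 7 genes r ran from 0.755 for Smtnl2 and Iglon5 to 0.991 for Ndrg1 and Kctd11.

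Some of the genes lie next to each other in the genome. In the RefSeq gene order Ndrg1 and St3gal1 are adjacent on chromosome 15 and Kctd11 and Acap1 on chromosome 11, each pair on the minus strand. Smtnl2 is also on chromosome 11, Appl2 on chromosome 10, Iglon5 on chromosome 7 and Naa80 on chromosome 9. Besides these, the 8 genes have 12 immediate protein-coding neighbours, of which 9 were tested, 3 rose with TNF-α and 0 fell, against 5.35% of all tested genes called higher and 3.86% called lower. Tmem95, on the other side of Kctd11, had 0.892 ± 0.00828 CPM in the combined group, 0.844 ± 0.257 CPM with TNF-α, 0.253 ± 0.110 CPM with TMAO and 0.360 ± 0.174 CPM in control, a rise of 1.51 ± 0.348 (adjusted p = 0.0407). Next to Smtnl2, Ggt6, a member of the gamma-glutamyltransferase family, rose by 0.68 ± 0.149 (adjusted p = 0.0344), and 1500009L16Rik next to Appl2 rose by 0.92 ± 0.127 (adjusted p = 0.00549). The neighbours Zfat at 0.04 ± 0.112, Washc4 at -0.05 ± 0.198, Vsig10l at 0.04 ± 0.294, Hyal1 at -0.45 ± 0.262, Ccn4 at -0.52 ± 0.557 and 2810408A11Rik at 1.07 ± 0.324 were not called. No neighbour outside the 8 genes was called in a comparison of TMAO.

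**Figure D4:**
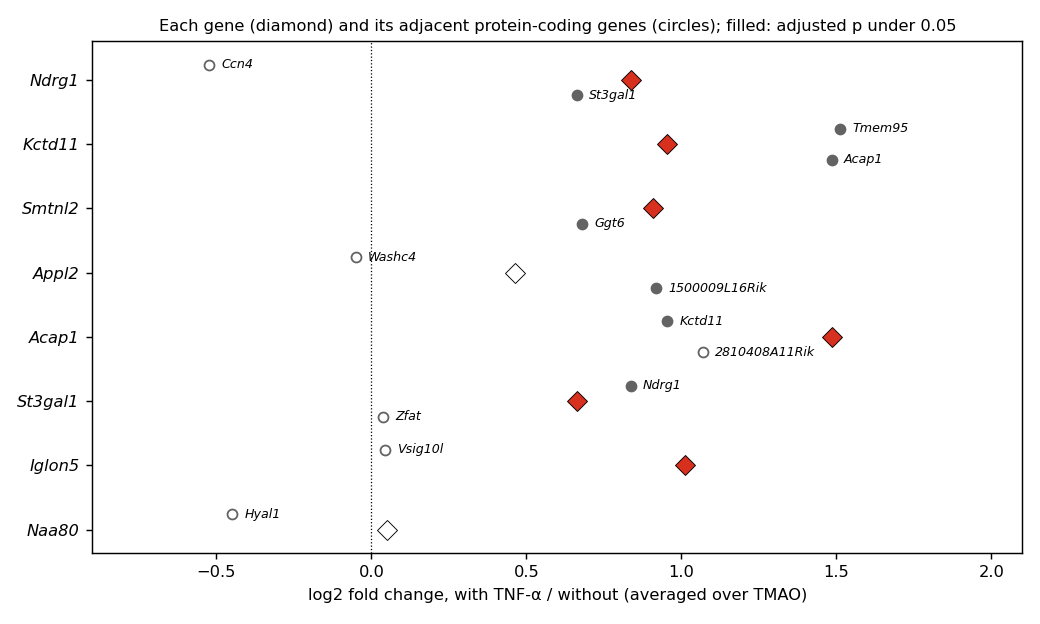
Log2 fold change with TNF-α, averaged over TMAO, of the 8 genes (diamonds, 1 row each) and of the tested protein-coding genes next to them (circles); filled points have an adjusted p under 0.05. Zfat, beside St3gal1, lies near 0, whereas Tmem95, beside Kctd11, lies at 1.51.

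Promoter windows in RefSeq, on build GRCm38.p6 and from 250 bases before to 50 after the start, were held for 5 of the 8 genes: Kctd11, Smtnl2, Appl2, Iglon5 and Naa80. They were searched on both strands for each form of the HIF core. The form ACGTG was in 0 of the 5 windows, against 19.6% of 32851 windows of this length. The form that starts with G instead, GCGTG, was in 1 of the 5, that of Appl2, against 32.4% of all windows. A match is a description of letters only, and the absence of one here says nothing of sites outside the window. The pair below shows the Appl2 window, with its match in capitals at position 130 from the 5′ end, beside that of Kctd11, the gene closest to Ndrg1 in pattern, which held neither motif. Appl2 is at chr10:83648615-83648914 and Kctd11 at chr11:69880936-69881235, both on the minus strand and written 5′ to 3′.
Appl2: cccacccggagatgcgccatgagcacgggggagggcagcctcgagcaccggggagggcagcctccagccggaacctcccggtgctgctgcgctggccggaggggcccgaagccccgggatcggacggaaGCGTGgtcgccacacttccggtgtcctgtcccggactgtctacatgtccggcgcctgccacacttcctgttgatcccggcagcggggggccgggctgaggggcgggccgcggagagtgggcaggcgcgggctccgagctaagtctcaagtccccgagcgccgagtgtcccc
Kctd11: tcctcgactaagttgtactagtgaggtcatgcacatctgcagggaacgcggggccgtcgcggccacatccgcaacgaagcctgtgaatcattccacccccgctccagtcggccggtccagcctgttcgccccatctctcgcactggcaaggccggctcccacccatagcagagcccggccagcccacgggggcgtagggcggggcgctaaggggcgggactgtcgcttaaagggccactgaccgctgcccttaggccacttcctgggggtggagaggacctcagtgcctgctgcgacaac
The TNF-α difference was 0.46 for Appl2, which did not pass, and 0.95 for Kctd11, which did. Whether the motif bears on either value was not tested.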

How the data were processed

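RNA of 8 Hepa1-6 libraries was sequenced as messenger RNA selected on oligo beads, per the labels' protocols. The authors deposited a matrix of raw counts per Ensembl gene ID, with no normalization, and a table of TPM per gene symbol, per the file headers. The submitters' processing notes name mm9, whereas the IDs match the later GENCODE M21 set, and no source used here gives the aligner, strand or counting settings. Symbols were assigned to 54409 of 54446 IDs. Naa80 is listed as Nat6 in the authors' TPM table, and Ero1a as Ero1l in the gene annotation used here. Counts and TPM disagreed for Galnt2 and for the hepatocyte marker Trf, which averaged 2.25 CPM but 194 TPM in control. The summed hepatocyte markers therefore hold little of Trf. No other value column was present.

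Counts were scaled by TMM and tested with edgeR 4.0.16 (quasi-likelihood test, R 4.3.3) in 1 model of 4 group means with 4 residual degrees of freedom. The filter on low counts left 15613 genes, over which p-values were adjusted by Benjamini-Hochberg at 0.05; CPM use TMM-scaled library sizes. Intervals are 95% and cover the spread between libraries only. The members and lists were chosen with earlier results of these data known. TMAO against control chose the genes and is described without a test. The combined group against TNF-α used libraries outside that comparison. TNF-α averaged over TMAO is orthogonal to that comparison but shares its libraries. Named besides the 8 genes are their tested family members, their RefSeq neighbours, listed pathway genes that were called (otherwise the 4 with the smallest p) and the 3 genes most like each in log2 CPM. A gene that this rule also named is not reported here. The scripts were tested on simulated data. Alternatives were DESeq2 1.42.0, limma-voom 3.58.1, other scalings and filters, a replicate block, each library left out, and log2(TPM + 1) or log2(TPM + 0.1) tested with limma.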

Additional observations from a re-analysis of the deposited data

Results flagged for a closer look

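Naa80 stood out because its libraries moved in opposite directions under TNF-α. In cells with TMAO the log2 fold change was -0.267 (95% interval -0.684 to 0.15), and both combined libraries (3.31 and 3.44 CPM) lay below both TMAO libraries (4.34 and 3.78 CPM). In cells without TMAO it was 0.365 (95% interval -0.041 to 0.771), and both TNF-α libraries (5.23 and 6.53 CPM) lay above both control libraries (4.56 and 4.55 CPM). Both intervals include 0. The fitted difference between these effects was -0.63 ± 0.247 (SE) and did not pass over all genes (adjusted p = 0.953, edgeR); it contains the comparison by which the genes were chosen and is given as a description. The values rest on a gene that overlaps Hyal1 and Hyal3 on the same strand.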

How the results depend on the processing

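With 2 libraries per group and depths of 24736746 counts or more, the spread between libraries limits precision, and it was widest in the TNF-α pair. Low counts limit it further for Smtnl2, Acap1 and Naa80, which fell to 31, 29 and 92 counts in a library. For the combined group against TNF-α, Ndrg1, Kctd11, Smtnl2 and Naa80 stayed below 0 in all 20 alternatives (Ndrg1 from -0.41 to -0.32, Kctd11 from -0.61 to -0.41, Smtnl2 from -1.07 to -0.37, Naa80 from -0.93 to -0.47). The other 4 reversed in some, and the cause was not tested. Iglon5 had 0.0033 with total-count scaling, 0.0091 without TNF-α 16, 0.0121 without both TNF-α 16 and control 14 (chosen after seeing the data), 0.1771 with log2(TPM + 1) with or without the filter, and 0.18 with log2(TPM + 0.1). St3gal1 had 0.0099 without combined 16, 0.0721 without TNF-α 14, 0.3195 with log2(TPM + 1) with or without the filter, and 0.3231 with log2(TPM + 0.1). Appl2 had 0.2055 without TNF-α 14, 0.1451 with log2(TPM + 1) with or without the filter, and 0.1535 with log2(TPM + 0.1). Acap1 had 0.2853 without TNF-α 14. With a library left out, these 4 ranged from -0.0355 for Iglon5, -0.0983 for St3gal1, -0.2821 for Appl2 and -0.9586 for Acap1 up to the values just given. On the TPM scales the median of all genes in this comparison shifted to 0.133, 0.154 and 0.027 for log2(TPM + 1), log2(TPM + 0.1) and log2(TPM + 1) without the filter. For TNF-α on average, Naa80 reversed to -0.0353 without TNF-α 16 (its range with a library left out reached 0.1296), -0.023 without both TNF-α 16 and control 14, -0.0729 with log2(TPM + 1) with or without the filter, and -0.0868 with log2(TPM + 0.1).

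Genes called in TMAO against control numbered 0, against 4 with DESeq2, 2 without the filter, 3 when only the compared groups were fitted, 0 to 9 with a library left out (9 without either TNF-α library) and 48 without both TNF-α 16 and control 14. In the combined group against TNF-α the count was 0, against 2 with log2(TPM + 1), 1 with that scale unfiltered, 12 without both TNF-α 16 and control 14, and 0 to 8068 with a library left out. Of the 8 genes, 0 were called, against 3 (Ndrg1, Kctd11 and Acap1) without both TNF-α 16 and control 14 and 0 to 4 with a library left out. For TNF-α on average, 1437 genes were called, against 820 with log2(TPM + 1), 777 with log2(TPM + 0.1), 732 with the unfiltered scale, 5526 without both TNF-α 16 and control 14, and 647 to 7444 with a library left out. Of the 8 genes 6 were called, against 3 on the TPM scales (Ndrg1, Kctd11 and Iglon5), 7 with DESeq2 or without the filter (Appl2 added) and 4 to 7 with a library left out. Where a library left 1 in its group, that lone library was assumed to vary like the other groups.

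The labels do not say what the numbers 14 and 16 mean, and they were not taken as pairs in the main analysis. The correlation of the differences between them was -0.421 for control and TNF-α and -0.046 to 0 for the other group pairs. No 2 groups thus shifted the same way by number, and the source of the negative value was not tested. With the number as a replicate block, 1011 genes were called for TNF-α on average, 5 of the 8 among them (Acap1 was lost), and 0 genes in either comparison of TMAO.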
